A study of Rattus norvegicus with 33 samples.

Results

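The expression of 10 signals that shape prostate budding and branching was followed across 33 rat prostate arrays. The genes are the Hedgehog ligand Shh, its receptor Ptch1 and its effector Gli1, the growth factor Fgf10 and its receptor Fgfr2, the bone morphogenetic proteins Bmp4 and Bmp7, the secreted ligand Wnt5a, and the transcription factors Sox9 and Hoxd13. The genes were chosen by name, as the non-control probes whose gene name on the array equals one of the 10 symbols, and the brightest of a gene's probes stood for it. All 10 genes had a probe, with 16 probes among them. Of the 10 genes, 9 were well above background on at least 3 arrays and entered the test beside all others, as 9 of 23155 genes. Shh did not.

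The animals were male Sprague-Dawley rats of the Hsd:SD stock on a chow low in plant estrogens. On postnatal days (PND) 1, 3 and 5 pups were injected subcutaneously with vehicle or with 2.5 mg/kg of EB, the slowly released estrogen estradiol benzoate. At PND 90 the animals received silastic implants, either filled with testosterone and with estradiol (T+E) or empty. The EB+T+E group had EB as pups and filled implants as adults, the T+E group had vehicle and filled implants, the EB group had EB and empty implants, and the Control group had vehicle and empty implants. Prostates were taken at PND 100 (10 days after implantation) and PND 145 (55 days after it), with 3 arrays per group except EB at PND 145, which had 4. At PND 30, before any implant, EB and Control had 4 arrays each. By the labels each group drew on 3 to 4 litters, and nothing states which array came from which litter, so p-values cover only the spread among these arrays. The samples are described as whole prostate while the series is titled for the dorsolateral lobes, so the lobes included are not certain.

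In the developing prostate, buds grow out of the urogenital sinus epithelium into mesenchyme under androgen. Shh is made by the epithelium and acts through Ptch1 on neighbouring mesenchyme, where Gli1 is a target as well as an effector. Fgf10 is made by mesenchyme and acts on epithelial Fgfr2 to drive outgrowth, while Bmp4 and Bmp7 restrain branching in the mouse. Wnt5a is a mesenchymal ligand of the non-canonical Wnt routes, Sox9 is a transcription factor of the growing bud tips, and Hoxd13 is a posterior homeobox gene that patterns the accessory sex glands. Estrogen given to newborn rodents is a known means of altering prostate branching.

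Each array reads a gene through a probe of 60 bases, and 6 probes are shown here, 5′ to 3′, whose letters read as protein-coding sequence, judged from the known proteins and not from an annotation. They are shown because levels or repeat readings of these genes rest on them. Positions are those of the array's design on build rn4. The Shh probe lies at chr4:2208969-2209028 (+ strand), the Gli1 probe at chr7:67288638-67288697 (- strand), the Bmp4 probe at chr15:22283362-22283421 (- strand), the second Fgfr2 probe at chr1:189488370-189488429 (- strand) and the 2 middle Sox9 probes, which gave different answers, at chr10:102388891-102388950 and chr10:102388988-102389047 (+ strand).
Shh: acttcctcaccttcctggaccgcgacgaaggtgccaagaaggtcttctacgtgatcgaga
Gli1: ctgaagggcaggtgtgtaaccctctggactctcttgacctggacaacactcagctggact
Bmp4: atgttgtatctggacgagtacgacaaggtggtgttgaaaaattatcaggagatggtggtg
Fgfr2: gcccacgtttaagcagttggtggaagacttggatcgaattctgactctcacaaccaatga
Sox9, probe 2: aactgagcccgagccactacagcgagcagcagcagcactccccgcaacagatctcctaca
Sox9, probe 3: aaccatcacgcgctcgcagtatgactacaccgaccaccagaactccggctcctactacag
The brightest probes of the remaining genes lie at chr17:7142363-7142422 (Ptch1), chr2:50942629-50942688 (Fgf10), chr1:189483073-189483132 (Fgfr2), chr3:163723705-163723764 (Bmp7), chr16:3801443-3801502 (Wnt5a), chr10:102389659-102389718 (Sox9) and chr3:57286872-57286931 (Hoxd13). Whether each falls in a coding exon or a UTR was not looked up, since no annotation of that build was used here.

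Promoters, as the 250 bases before and the 50 after the annotated start in RefSeq (build GRCr8), were listed for 6 of the 10 genes. The promoter of Ptch1, a gene that Hedgehog signalling itself induces, is shown because it held a match to the GLI core motif, in capitals. Those of Fgfr2 and Hoxd13 are shown because both genes fell in the EB+T+E prostates. Ptch1 is at chr17:1555321-1555620 (+ strand), Fgfr2 at chr1:194280865-194281164 (- strand) and Hoxd13 at chr3:79977827-79978126 (+ strand).
Ptch1: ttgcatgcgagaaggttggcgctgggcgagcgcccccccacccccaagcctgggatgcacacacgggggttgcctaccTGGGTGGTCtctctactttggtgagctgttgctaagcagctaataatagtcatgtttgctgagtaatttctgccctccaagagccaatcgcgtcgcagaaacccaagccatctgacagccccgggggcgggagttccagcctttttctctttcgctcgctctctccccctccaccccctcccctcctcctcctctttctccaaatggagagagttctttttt
Fgfr2: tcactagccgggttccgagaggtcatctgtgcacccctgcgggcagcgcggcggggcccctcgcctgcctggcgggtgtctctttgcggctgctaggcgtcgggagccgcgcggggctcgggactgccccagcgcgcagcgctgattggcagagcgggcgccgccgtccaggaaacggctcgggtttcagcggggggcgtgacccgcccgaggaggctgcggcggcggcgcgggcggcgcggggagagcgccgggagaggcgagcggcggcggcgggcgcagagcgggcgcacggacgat
Hoxd13: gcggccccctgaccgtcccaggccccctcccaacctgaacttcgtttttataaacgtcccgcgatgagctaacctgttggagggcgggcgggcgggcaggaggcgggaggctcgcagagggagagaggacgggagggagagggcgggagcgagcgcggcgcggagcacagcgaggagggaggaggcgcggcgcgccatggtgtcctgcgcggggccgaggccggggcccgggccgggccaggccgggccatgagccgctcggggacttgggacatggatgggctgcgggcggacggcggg
The GLI core TGGGTGGTC, searched on both strands, began at base 79 of the Ptch1 window, and 129 of 33469 promoters of this length (0.385%) held it. None of the 6 promoters held, on either strand, the estrogen response element (GGTCA, 3 bases of any kind, TGACC), which 9 of all promoters (0.0269%) held. The same was true of the androgen response element (AGAACA, 3 bases of any kind, TGTTCT), which 5 (0.0149%) held. A match is a run of letters, not a bound site, and no match says only that these letters are not in the window. Fgfr2 and Hoxd13 had GC-rich windows, with 77.7% and 74.7% GC and 48 and 36 CpG dinucleotides, against medians of 51.7% and 7 over all promoters. The Ptch1 window had 57.3% GC and 12 CpG.

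A level is given below as the log2 ratio of the processed signal to the 75th percentile of its array, so that 0 is the brightness of the 75th percentile and -1 is 1 doubling below it. Per array, 61.5% to 68.9% of the 58717 spots were well above background, and none was saturated. All 10 luminal epithelial markers tested (Krt8, Krt18, Epcam and others) were well above background on every array. Arrays of a group correlated at 0.864 or more. The lowest value came from EB+T+E at PND 100, whose first array had a mean luminal level of -0.91 where the other 2 had 1.99 and 2.72, and mean skeletal muscle levels were 3.27, 1.58 and -6.37 on the 3 arrays. The second Control array at PND 145 carried seminal vesicle products at a mean of 4.35 and spermatid genes at 2.52, where the other 2 Control arrays had at most 0.06 and -3.35. On all 3, all 8 spermatid genes and all 6 seminal vesicle genes tested were well above background. Leaving out 1 array thus does not remove these transcripts from Control. The calls of EB+T+E against Control, for the 10 genes and other named genes, were checked without 2 arrays in turn. These were the first EB+T+E array at PND 100 and the second Control array at PND 145, each for the comparison of its age. Values are given where this ended the call or moved it by over 1.5 times. Of all genes, 3.02% were called between EB+T+E and Control at PND 100 without the first of these arrays, and 24.8% at PND 145 without the other. Slides 1 to 4 held 8 arrays of 8 groups each. For the 10 genes, values within a slide are given for calls against Control, for calls at PND 100 and for Gli1 in EB.

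Bmp7, Fgfr2 and Hoxd13 were lower in prostates that had both neonatal EB and adult T+E than in Control prostates, at both adult ages, and Fgf10 and Wnt5a were higher at PND 145. Sox9 was lower at PND 100. Without the first EB+T+E array, the calls at PND 100 against Control ended for Sox9 (-1.09, adjusted p = 0.208), Hoxd13 (-0.56, 0.205) and Fgfr2 (-1.24, 0.0539), and that of Bmp7 held (-1.67, 0.0265). Without the second Control array at PND 145, the calls of Bmp7 and Hoxd13 held, and those of Fgfr2 (-0.91, 0.0956), Fgf10 (0.92, 0.145) and Wnt5a (1.83, 0.0601) ended. Over all 10 groups, 8 of the 9 genes tested differed (moderated F test of limma, Benjamini-Hochberg adjusted p under 0.05), where 44.9% of all genes did. The adjusted p of this test ran from 8.13e-05 for Bmp7 to 0.0459 for Bmp4 among the 8, and was 0.782 for Ptch1. The span between the highest and the lowest group mean ran from 0.78 for Ptch1 to 2.55 for Bmp7.

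**Figure D1:**
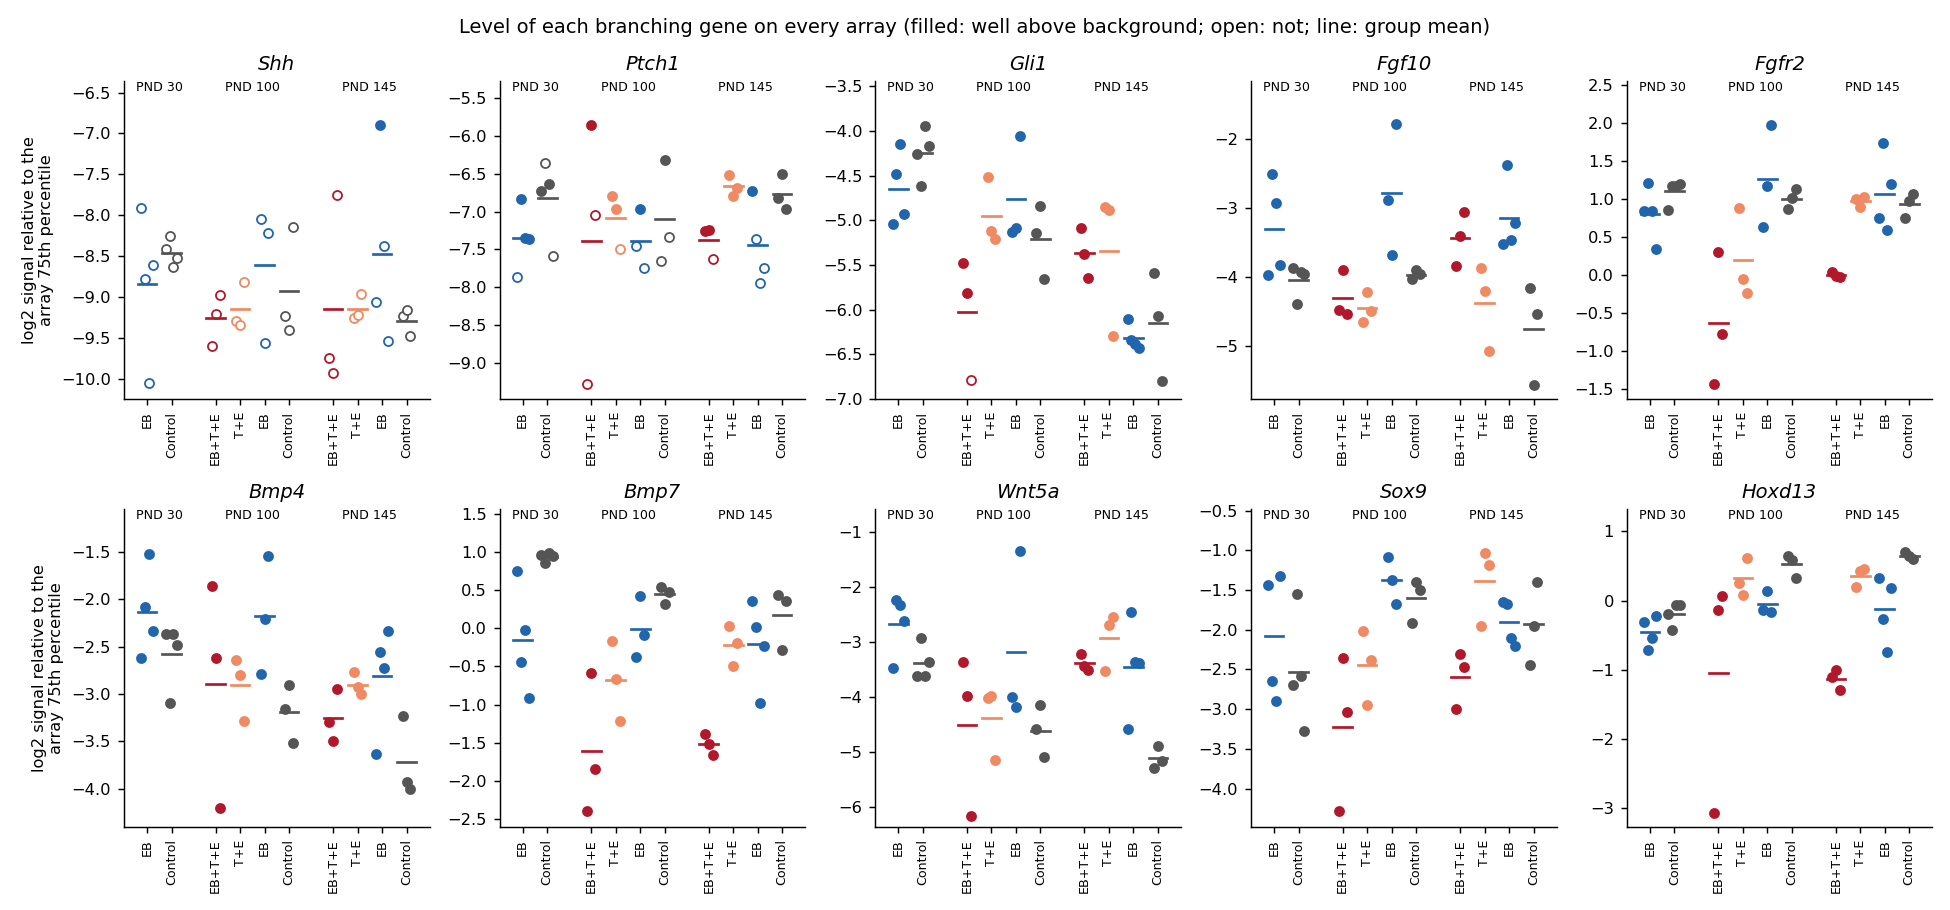
Level of each of the 10 genes (log2 of the signal over the array's 75th percentile, vertical axis) on each of the 33 arrays, by group and age (horizontal axis). Filled points are well above background, open points are not, and lines are group means. Bmp7, Fgfr2 and Hoxd13 have their lowest group means in the EB+T+E columns, and all but 1 of the Shh points are open.

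Between EB+T+E and Control at PND 100, 4 of the 9 genes passed and all 4 were lower in EB+T+E, where 12.6% of all genes were called (5.4% higher and 7.23% lower). At PND 145, 3 were lower and 2 higher, where 35.4% of all genes were called (14.7% higher and 20.7% lower). Against T+E alone at PND 145, 3 genes passed and all were lower, where 21.4% of all genes were called (9.68% higher and 11.7% lower). Against EB alone, 3 were lower at PND 100, where 1.71% of all genes were called, and 2 were lower at PND 145, where 22.9% were called (10.6% higher and 12.4% lower). All calls at PND 100 depended on the spread shared over the 10 groups: in a fit of only EB+T+E and Control, or only EB+T+E and EB, of that age, 0 of the 9 genes passed with limma. The share of all genes called in those 2 fits is not set beside this count. The count is therefore not particular to these genes. With 9 genes, 5 called at PND 145 against Control and 3 against T+E are not far from those background shares. These comparisons share the EB+T+E arrays, and those at 1 age that share them are not independent of each other. Over all genes the median log2 ratio of EB+T+E to Control was -0.24 at PND 145 and -0.09 at PND 100. Arrays of EB+T+E and Control at PND 145 did not overlap for 6 of the 9 genes, beside 52.5% of all genes. Against T+E this held for 6 (41.1%) and against EB for 5 (31.3%). At PND 100 it held for 4 against Control (26.2%), 2 against T+E (17%) and 5 against EB (10.9%). A lack of overlap at PND 145, as described below, was thus common among all genes.

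The Hedgehog genes showed no change that passed in any EB+T+E comparison. Shh was well above background on 1 of 33 arrays, the second EB array at PND 145 (-6.90), and its levels elsewhere have no order, so no difference is given. Ptch1, the receptor that both binds Shh and is induced by it, was well above background on 19 of 33 arrays. Its levels in EB+T+E prostates at PND 145 were -7.25, -7.24 and -7.62, against -6.82, -6.50 and -6.97 in Control. The groups did not overlap, but the difference of -0.60 had a 95% interval from -1.73 to 0.53, which takes in both a fall of more than 1 doubling and a small rise.

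Gli1, the transcription factor at the end of the pathway, was well above background on 32 of 33 arrays. In the PND 145 EB prostates it stood at -6.10, -6.34, -6.38 and -6.43, against -5.13, -5.09 and -4.06 in the PND 100 EB prostates. All 4 later arrays were below all 3 earlier ones, where 9.89% of all genes did not overlap between these groups. This difference of -1.55 ± 0.38 (SE), a 2.93-fold fall, passed at an adjusted p of 0.0495, where 0.747% of all genes were called. It is close to the threshold: without the third EB array of PND 100 it was -1.20 with an adjusted p of 0.57, with normexp background correction -0.59 and 0.202, and with slide as a block -1.47 and 0.0697. The call was also lost without the second Control array of PND 145, which is in neither group compared. Within the slides that held both groups the difference was -2.04 and -1.25. In Control prostates Gli1 averaged -4.24 ± 0.28 at PND 30, -5.21 ± 0.42 at PND 100 and -6.15 ± 0.61 at PND 145 (SD, n = 4, 3 and 3). Neither step passed (adjusted p = 0.218 for PND 100 against PND 30), and of the 9 genes 0 passed in either Control step with limma, where 2.25% and 0% of all genes were called and 3 and 1 of the 9 had an unadjusted p under 0.05.

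Gli1 in the EB+T+E prostates at PND 100 was -5.48, -5.81 and -6.79, the last of which was not well above background, against -5.14, -4.84 and -5.66 in Control. At PND 145 it was -5.08, -5.38 and -5.65 in EB+T+E, against -5.59, -6.07 and -6.80 in Control. The difference was -0.82 at PND 100 (adjusted p = 0.189) and 0.79 at PND 145 (adjusted p = 0.131), so neither passed. With array weights Gli1 in EB+T+E at PND 145 passed against Control (0.87, 0.028) and against EB (1.05, 0.00319). Of the genes that receive and transmit Hedgehog signals, Ptch1 and Gli1 among them, 12 of 12 listed were tested, and 4 were higher and 2 lower in EB+T+E than in Control at PND 145, which is 50% beside the 35.4% of all genes. Gli2, the main activator of the pathway, was 2.34 ± 0.47 higher (adjusted p = 5.10e-04), with means of -2.93 in EB+T+E and -5.27 in Control. Cdon, a co-receptor, was 1.20 ± 0.43 higher (adjusted p = 0.0308). Gas1, another co-receptor, was lower, with a difference of -0.95 ± 0.27 (adjusted p = 0.00922). Of the 12, 1 (Gli2) was called at PND 145 without the second Control array (2.48, 0.00156), or 8.33% beside 24.8% of all genes, and the calls of Cdon (1.16, 0.0816) and Gas1 (-0.79, 0.0575) ended. None of the 12 passed at PND 100 in that comparison.

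Fgf10, the mesenchymal growth factor, was higher in the EB+T+E prostates than in Control at PND 145. Its levels were -3.83, -3.40 and -3.06 in EB+T+E, against -4.16, -5.56 and -4.53 in Control. The groups did not overlap, with the difference of 1.32 ± 0.44 a 2.50-fold rise (adjusted p = 0.021). Within slides 3 and 4 it was 2.17 and 1.47. Without the second Control array it was 0.92 with an adjusted p of 0.145. That array was the lowest of the 3 and had the highest seminal vesicle and spermatid levels among them. The second Fgf10 probe, well above background on 10 of 33 arrays, gave 0.97 with an adjusted p of 0.154 over all probes.

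The EB groups held the 3 highest group means of Fgf10, at -3.30 ± 0.70 for PND 30, -2.79 ± 0.95 for PND 100 and -3.14 ± 0.53 for PND 145 (SD, n = 4, 3 and 4). At PND 145 the EB arrays read -3.52, -2.38, -3.46 and -3.21, all above the Control arrays, and the difference of 1.61 ± 0.41 had an adjusted p of 0.0688. At PND 100 the EB arrays read -2.88, -3.68 and -1.79, against -4.03, -3.90 and -3.95 in Control, a difference of 1.18 ± 0.44 (adjusted p = 0.114). At PND 30 the difference was 0.73 ± 0.38 (adjusted p = 0.445). None of the 3 passed, although all 3 lay on the same side. The second probe gave 2.14 at PND 145 with an adjusted p of 0.0429 over all probes, and the mean of both probes gave 1.88 with 0.0293. In T+E prostates Fgf10 was -4.64, -4.21 and -4.49 at PND 100 and -3.86, -4.20 and -5.06 at PND 145. The first of these groups lay below all 3 Control arrays of its age and the second overlapped Control, and neither passed.

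Fgfr2, the epithelial receptor for Fgf10 and Fgf7, fell in the EB+T+E prostates. At PND 100 its levels were -1.43, 0.31 and -0.78 in EB+T+E, 0.89, -0.05 and -0.24 in T+E, 0.63, 1.18 and 1.98 in EB, and 0.87, 1.02 and 1.13 in Control. The EB+T+E arrays were all below the EB and the Control arrays and overlapped those of T+E. The difference was -1.64 ± 0.35 from Control (3.12-fold, adjusted p = 0.00408) and -1.90 ± 0.35 from EB (3.73-fold, adjusted p = 0.0105). From T+E it was -0.83 (adjusted p = 0.167), which did not pass. Without the first EB+T+E array the differences from Control and EB were -1.24 (adjusted p = 0.0539) and -1.50 (adjusted p = 0.081). Within slide 1, which held that array, and slide 2 the difference from Control was -2.56 and -0.56. From EB it was -2.61, -1.67 and -1.41 within slides 1, 2 and 4.

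At PND 145 the 3 EB+T+E arrays of Fgfr2 lay close together, at 0.04, -0.01 and -0.02, against 1.00, 0.90 and 1.03 in T+E. EB had 0.76, 1.74, 0.60 and 1.20, and Control had 0.76, 0.98 and 1.07. Every EB+T+E array was below every array of the other groups of that age. The differences were near the threshold, at -0.93 ± 0.35 from Control (1.90-fold, adjusted p = 0.0413), -0.97 ± 0.35 from T+E (1.96-fold, 0.0483) and -1.07 ± 0.33 from EB (2.10-fold, 0.0203). The first of these was no longer called when any 1 of the 6 arrays compared was left out, with an adjusted p between 0.0566 and 0.106, or under quantile scaling (-0.67, 0.204). The call against T+E was lost in 28 of 43 alternatives, among them the fit without the second Control array. The second Fgfr2 probe, the coding one shown above, gave larger differences, at -1.87 from Control (0.0101 over all probes) and -1.80 from EB (0.0124). The probes correlated at 0.905 over the 33 arrays, as a description. Within slides 3 and 4 the difference from Control was -0.98 and -1.09.

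Among the other FGF genes, Fgf1 was lower in EB+T+E than in Control at PND 100 (-1.59 ± 0.35, adjusted p = 0.00508) and at PND 145 (-1.85 ± 0.35, adjusted p = 3.01e-04). Of 8 FGF ligands tested from 9 listed, 1 rose and 1 fell at PND 145, and the one that rose was Fgf10. Of 14 FGF receptors, feedback genes and targets tested from 15, 2 rose and 2 fell at PND 145. These shares, 25% of the ligands and 28.6% of the receptors and targets, were below the 35.4% of all genes called, so they say nothing particular to the pathway. Those that rose were Dusp6 (2.29 ± 0.55, adjusted p = 0.00255), a phosphatase that is induced by and dampens FGF signalling, and Etv5 (1.43 ± 0.38, adjusted p = 0.00594), an FGF-induced transcription factor. Spry2, an inhibitor of the pathway, was lower by a small margin (-0.61 ± 0.22, adjusted p = 0.0333), as was Fgfr2. The call of Fgf1 at PND 100 ended without the first EB+T+E array (-1.11, 0.0659), and that of Spry2 without the second Control array (-0.56, 0.101).

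Bmp4, a mesenchymal ligand that limits budding, did not pass in any pairwise comparison. Its group means ran from -2.14 ± 0.47 in EB at PND 30 (SD, n = 4) to -3.72 in Control at PND 145. The EB arrays at PND 100 read -2.79, -2.21 and -1.54, all above the Control arrays at -3.16, -2.90 and -3.52, with a difference of 1.02 ± 0.43 (adjusted p = 0.158). At PND 145 EB was 0.91 ± 0.40 above Control (adjusted p = 0.28). In EB+T+E at PND 100 the 3 arrays spread from -1.86 to -4.20, around the whole Control range.

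Bmp7, a ligand that restrains branching of the mouse prostate, was lower in 5 of the 6 comparisons of EB+T+E with another group of its age, as was Fgfr2. At PND 100 its levels were -2.40, -0.59 and -1.85 in EB+T+E, -0.17, -0.66 and -1.22 in T+E, -0.38, 0.42 and -0.09 in EB, and 0.54, 0.32 and 0.48 in Control. At PND 145 they were -1.38, -1.52 and -1.66 in EB+T+E, against 0.03, -0.49 and -0.19 in T+E. EB had 0.36, 0.01, -0.98 and -0.23 at that age, and Control had 0.43, -0.29 and 0.36. At PND 145 no EB+T+E array reached any array of the other groups. At PND 100 the EB+T+E arrays were below all EB and Control arrays and overlapped those of T+E.

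The difference of Bmp7 from Control was -2.06 ± 0.39 at PND 100 (4.17-fold, 95% interval -2.86 to -1.26, adjusted p = 0.00194) and -1.68 ± 0.39 at PND 145 (3.22-fold, adjusted p = 0.00181). From EB it was -1.60 ± 0.39 at PND 100 (3.03-fold, 0.0322) and -1.31 ± 0.36 at PND 145 (2.48-fold, 0.0108). From T+E it was -1.30 ± 0.39 at PND 145 (2.46-fold, 0.0181) and -0.93 at PND 100 (0.162), which did not pass. Without the first EB+T+E array of PND 100 the difference from Control was -1.67 with an adjusted p of 0.0265, and that from EB was -1.21 with 0.197. Without the second Control array of PND 145 it was -1.91 with 0.00246. Within slides, EB+T+E was below Control by -2.88 and -1.13 at PND 100 and by -1.23 and -2.02 at PND 145. The difference from EB at PND 100 was -2.83, -0.51 and -1.47 within slides 1, 2 and 4.

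Bmp7 also read lower in each single treatment than in Control, without passing. The EB arrays at PND 30 were at 0.75, -0.44, -0.02 and -0.92, against 0.96, 0.86, 0.99 and 0.94 in Control, with no overlap. That difference of -1.10 ± 0.34 had an adjusted p of 0.19, in a comparison where 0.0475% of all genes were called. T+E at PND 100 differed by -1.13 ± 0.39 (adjusted p = 0.303). The test of the EB by T+E interaction, which asks whether the effect of T+E differed after neonatal EB, called 0 of the 9 genes with limma at either age, where 0% of all genes were called at PND 100 and 0.769% at PND 145. At an unadjusted p under 0.05 it had 2 and 3 of the 9. Whether the fall of Bmp7 in the combined group is more than the sum of both single effects was therefore not shown by this test.

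Of 11 BMP and activin ligands, all tested, 2 rose and 1, Bmp7, fell at PND 145 in EB+T+E against Control. Inhbb, which encodes an activin and inhibin subunit, was 2.37 ± 0.65 higher (adjusted p = 0.00698), and Bmp5 was 1.76 ± 0.65 higher (0.0361). Of 22 BMP receptors, antagonists and targets, 3 rose and 4 fell. At 27.3% of the ligands and 31.8% of the others, these shares were below the 35.4% of all genes. Chrd, which encodes the secreted BMP antagonist chordin, was 3.77 ± 0.52 higher (adjusted p = 8.84e-06), with means of -0.24 in EB+T+E and -4.01 in Control. It was also higher in T+E than in Control at that age, by 2.49 ± 0.52 (0.0208), where 0.384% of all genes were called. That call in T+E was not checked without the second Control array. Bambi, a decoy receptor, was lower at PND 145 (-1.82 ± 0.36, 4.19e-04) and at PND 100 (-2.25 ± 0.36, 7.32e-04). Bmpr2, a type II BMP receptor, was lower at PND 145 (-1.28 ± 0.28, 0.00115), and Smad7, an inhibitory Smad, was lower at PND 100 (-1.44 ± 0.36, 0.01). The call of Smad7 ended without the first EB+T+E array (-1.32, 0.0645) and that of Bmp5 without the second Control array (1.66, 0.0983), while Bambi at PND 100 was still called (-1.86, 0.0111).

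Wnt5a was higher in EB+T+E than in Control at PND 145, and it also read higher in each single treatment at that age. Its levels at that age were -3.21, -3.43 and -3.51 in EB+T+E, -3.53, -2.69 and -2.55 in T+E, -4.58, -2.45, -3.36 and -3.38 in EB, and -5.28, -4.89 and -5.15 in Control. No array of any treated group was as low as the highest Control array. EB+T+E passed against Control, at 1.73 ± 0.63 (3.31-fold, adjusted p = 0.034), while T+E at 2.18 ± 0.63 (0.137) and EB at 1.67 ± 0.59 (0.178) did not. The call for EB+T+E was lost when any 1 of the 6 arrays was left out, with an adjusted p from 0.0509 to 0.0977, and with slide as a block (1.56, 0.0707). Within slides 3 and 4 it was 1.47 and 1.64. The second Wnt5a probe, well above background on 14 of 33 arrays, gave 1.85 (0.0436 over all probes).

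At PND 100 Wnt5a spread widely within the treated groups. EB+T+E had -3.36, -3.98 and -6.15, and EB had -3.99, -4.17 and -1.35, against -4.58, -4.15 and -5.09 in Control. Only 1 EB array stood far above the rest, and the difference of 1.44 ± 0.63 did not pass (adjusted p = 0.174). Of 15 Wnt ligands tested from 17, 1 rose at PND 145 in EB+T+E against Control, and that one was Wnt5a.

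Of 36 receptors, antagonists and targets of Wnt signalling tested from 39 listed, 5 rose and 12 fell in EB+T+E against Control at PND 145, and the list's median of -0.77 compares with -0.24 over all genes. At PND 100, 2 rose and 9 fell. These are 47.2% and 30.6% of the list, beside 35.4% and 12.6% of all genes. Nkd1, a feedback inhibitor of the canonical pathway, was lower at PND 100 (-2.25 ± 0.48, adjusted p = 0.00396) and PND 145 (-2.54 ± 0.48, 2.64e-04). Lef1, a transcription factor of the same pathway, was lower at PND 100 (-2.99 ± 0.56, 0.00184), as was Wif1 (-2.45 ± 0.58, 0.00723), a secreted Wnt inhibitor. Ryk, a receptor that binds Wnt5a, was lower at PND 145 (-1.14 ± 0.23, 6.47e-04), as was Tcf7l2 (-1.68 ± 0.34, 6.32e-04). Tcf7, also known from T cells, was higher at PND 145 (2.90 ± 0.50, 9.87e-05). Without the first EB+T+E array the count at PND 100 was 3 lower and 0 higher, or 8.33% beside 3.02% of all genes, with Lef1 and Nkd1 still called and Wif1 not (-1.42, 0.094). At PND 145 the count was 8 lower and 3 higher without the second Control array, or 30.6% beside 24.8%.

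Sox9, the bud-tip transcription factor, was lower in EB+T+E at PND 100, with 1 array far below the rest. Its levels were -4.28, -2.35 and -3.04 in EB+T+E, -2.01, -2.95 and -2.38 in T+E, -1.08, -1.37 and -1.68 in EB, and -1.91, -1.40 and -1.50 in Control. The EB+T+E arrays lay below all EB and Control arrays and overlapped those of T+E. The difference from Control was -1.62 ± 0.46 (3.07-fold, adjusted p = 0.0209) and from EB -1.85 ± 0.46 (3.60-fold, 0.0344). Without the first EB+T+E array they were -1.09 (0.208) and -1.32 (0.219), neither of which passed. Within slides 1 and 2 the difference from Control was -2.78 and -0.44. From EB it was -2.91, -0.67 and -1.95 within slides 1, 2 and 4.

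The 4 Sox9 probes did not all give this call. Of the pair shown above, probe 2 read -0.46 from Control at PND 100 (adjusted p = 0.417 over all probes) and probe 3 -1.76 (0.00803). Probe 4, at chr10:102387172-102387231, read -0.72 (0.39). At PND 145 the brightest probe had -3.00, -2.31 and -2.47 in EB+T+E, against -1.95, -1.03 and -1.19 in T+E and -2.44, -1.95 and -1.40 in Control. The difference from T+E was -1.20 ± 0.46 (adjusted p = 0.0604), and that from Control did not pass either.

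Of 14 epithelial bud and duct transcription factors tested from 15 listed, 1 rose and 3 fell in EB+T+E relative to Control at either age. That is 28.6%, beside 12.6% of all genes at PND 100 and 35.4% at PND 145, and without the first EB+T+E array 1 fell and 0 rose at PND 100. Foxa1, a partner of the androgen receptor, was lower at both ages (-2.33 ± 0.45, adjusted p = 0.00215, and -1.55 ± 0.45, 0.00952). Runx1 was higher at both (1.23 ± 0.40, 0.0427, and 2.46 ± 0.40, 5.84e-05). Sox9 was among those that fell at PND 100 and Grhl2, a transcription factor of epithelia, among those at PND 145 (-2.43 ± 0.67, 0.0069). At PND 100 without the first EB+T+E array Foxa1 was still called (-1.77, 0.0313) and Runx1 was not (0.99, 0.235).

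Hoxd13 fell in EB+T+E prostates at PND 145 with little spread. Its levels were -1.11, -1.0 and -1.30 in EB+T+E, against 0.19, 0.43 and 0.46 in T+E. EB had 0.33, -0.26, -0.74 and 0.18, and Control had 0.70, 0.65 and 0.60. The EB+T+E arrays were below every other array of that age, and the EB arrays were below every Control array. The difference was -1.79 ± 0.45 from Control (3.46-fold, adjusted p = 0.00334) and -1.50 ± 0.45 from T+E (2.82-fold, 0.0176). From EB it was -1.01 ± 0.42 (0.0776), which did not pass. Without the second Control array it was -1.79 with 0.0128, and within slides 3 and 4 it was -1.65 and -1.90.

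At PND 100 the fall of Hoxd13 rested on 1 array. EB+T+E had -3.07, -0.14 and 0.07, T+E had 0.26, 0.08 and 0.62, EB had -0.13, 0.14 and -0.16, and Control had 0.65, 0.59 and 0.33. The difference from Control was -1.57 ± 0.45 (2.97-fold, adjusted p = 0.0213) with all arrays and -0.56 (0.205) without the first EB+T+E array. Within slides 1 and 2 it was -3.40 and -0.79. The fit shares 1 estimate of spread per gene between groups, so that array also widened the errors of Hoxd13 elsewhere: without it the difference of EB+T+E from EB at PND 145 kept its size of -1.01 and had an adjusted p of 5.41e-04.

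Of 15 posterior Hox genes and their partners tested from 20 listed, Hoxd13 among them, 8 fell and 0 rose in EB+T+E relative to Control at PND 145, where the median of the list was -1.08 and that of all genes -0.24. That is 53.3% of the list, beside 35.4% of all genes called and 20.7% called lower. Hoxd8 was lower by -1.55 ± 0.26 (adjusted p = 9.03e-05), Hoxa11 by -1.12 ± 0.25 (0.00123) and Hoxd9 by -1.08 ± 0.25 (0.00214). At PND 100, 5 fell (33.3%, beside 12.6% of all genes) and 0 rose, and without the first EB+T+E array only Hoxd8 fell. At PND 145 without the second Control array 6 fell, or 40% beside 24.8% of all genes. At PND 145, 6 fell against T+E and 7 against EB. Hoxd10 was lower than in EB by -1.45 ± 0.33 (0.00234) and lower than in T+E by -1.19 ± 0.35 (0.0164). In T+E or EB alone against Control at either adult age 0 of the 15 passed, where at most 2.69% of all genes were called, so this count is not particular to the list.

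**Figure D2:**
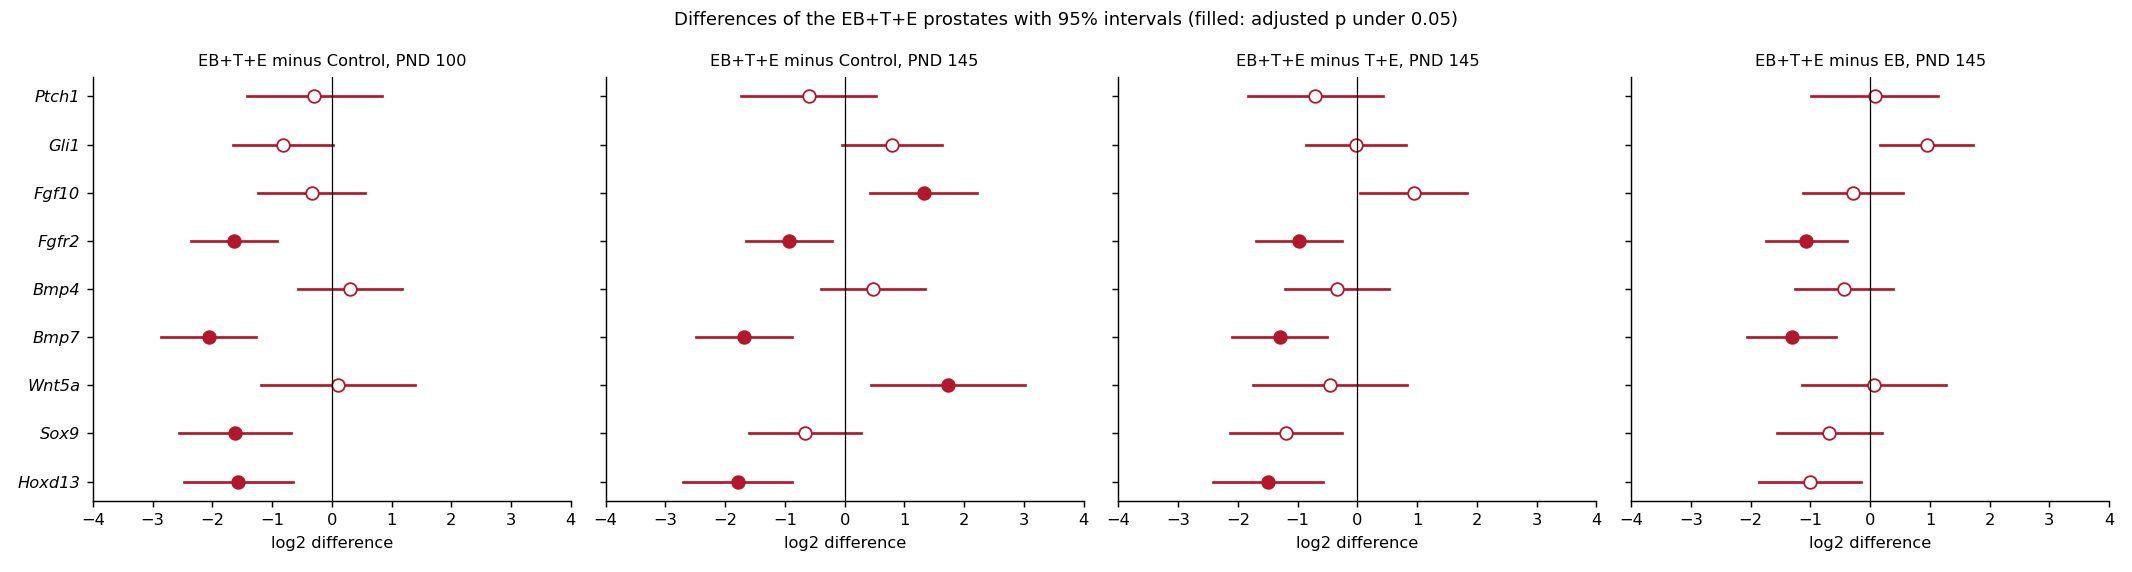
Log2 difference (horizontal axis) of the 9 tested genes between EB+T+E and Control at PND 100 and PND 145, T+E at PND 145 and EB at PND 145, with 95% intervals from limma. Filled points have an adjusted p under 0.05. Bmp7 and Fgfr2 lie left of 0 and are filled in all 4 panels, and Fgf10 and Wnt5a are filled right of 0 against Control at PND 145.

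**Figure D3:**
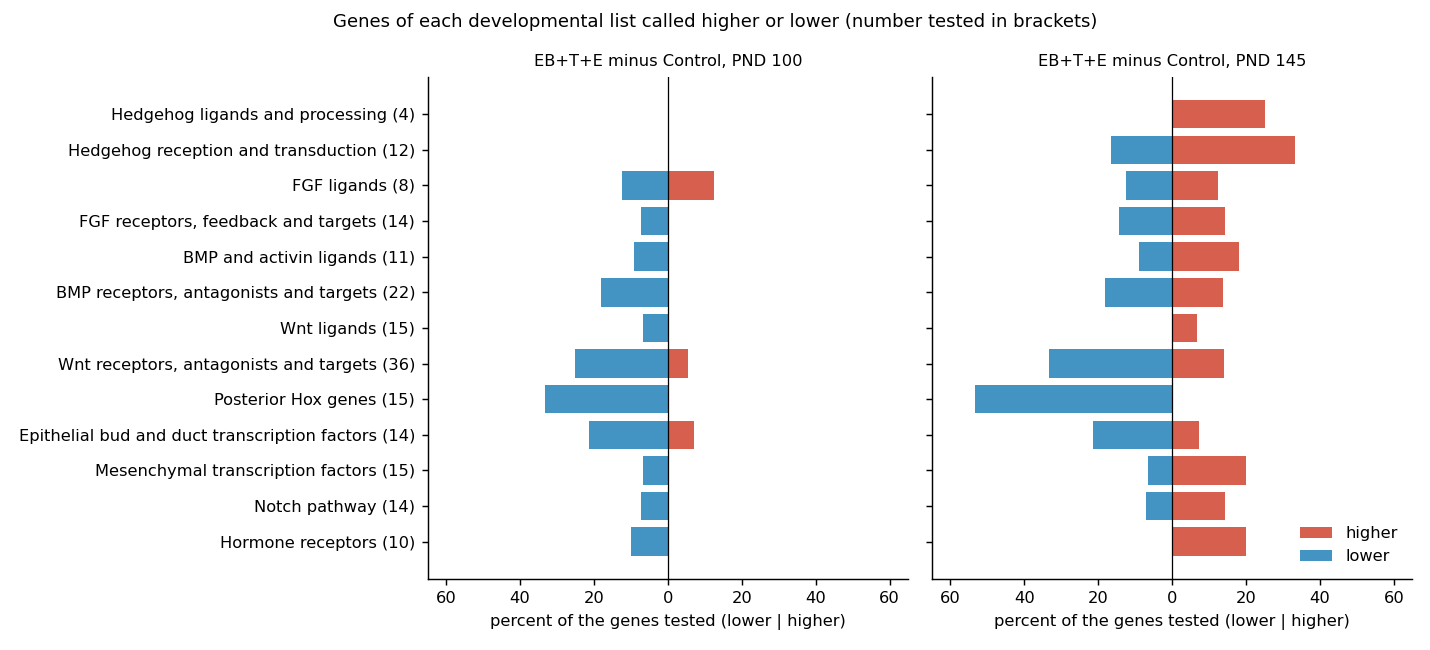
Percent of the tested genes of each of 13 lists that were called higher (bars to the right) or lower (bars to the left) in EB+T+E than in Control, at PND 100 and PND 145. Among posterior Hox genes 5 of 15 were lower at PND 100 and 8 of 15 at PND 145, with 0 higher.

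Each treatment alone changed none of the 9 genes by this test. EB against Control called 0 at PND 30, 0 at PND 100 and 0 at PND 145 with limma, where 0.0475%, 2.69% and 0.57% of all genes were called. At an unadjusted p under 0.05 there were 1, 3 and 3 of the 9. T+E against Control called 0 at PND 100 and 0 at PND 145, where 0.181% and 0.384% of all genes were called, with 2 and 1 of the 9 at an unadjusted p under 0.05. Between EB+T+E and T+E at PND 100 the count was 0, where 3.98% of all genes were called, and 4 of the 9 had an unadjusted p under 0.05. Hoxd13 had the smallest adjusted p of these, 0.0757, at a difference of -1.37. Arrays of EB and Control did not overlap for 1, 3 and 3 of the 9 genes at PND 30, 100 and 145. Of all genes, 9%, 26.8% and 19.2% did not. For T+E and Control it was 3 of the 9 at PND 100 and 3 at PND 145, beside 21.4% and 21.8%. A missed threshold at these group sizes does not show that levels were equal.

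Age was compared within EB and between the EB effects. EB at PND 100 against EB at PND 30 called 0 of the 9 genes, where 8.62% of all genes were called, and 0 had an unadjusted p under 0.05. The change of the EB effect between PND 30 and PND 100, and between PND 100 and PND 145, called 0 of the 9, where 0.0216% and 0% of all genes were called, again with 0 at an unadjusted p under 0.05. The size of the EB differences for Fgf10, at 0.73, 1.18 and 1.61 for the 3 ages, was thus not shown to change with age.

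**Figure D4:**
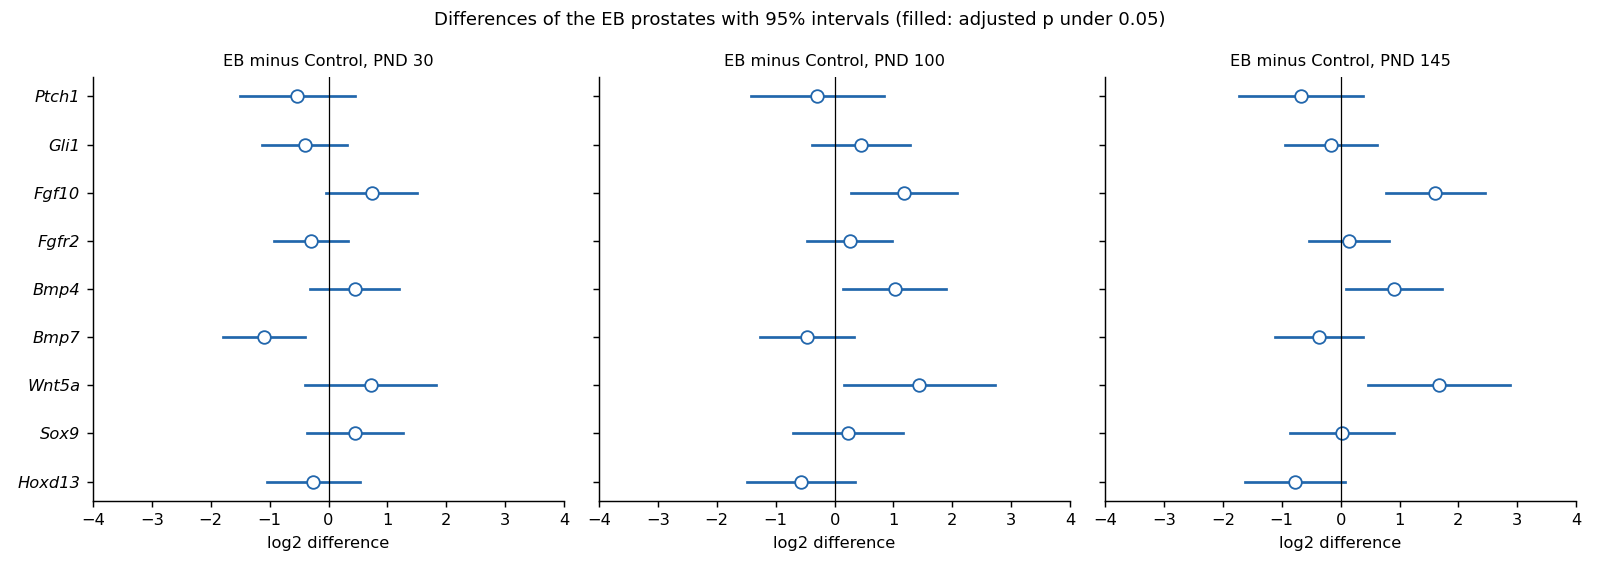
Log2 difference between EB and Control (horizontal axis) for the 9 tested genes at PND 30, PND 100 and PND 145, with 95% intervals from limma. No point is filled, since none had an adjusted p under 0.05, and Fgf10, Wnt5a and Bmp4 lie right of 0 at all 3 ages.

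In bulk tissue, fewer cells of a type and less RNA per cell cannot be told apart, and several cell-type lists moved with the groups. The smooth muscle list, 11 of 11 genes tested, had array means of -0.29, -1.0 and 0.45 in EB+T+E at PND 145, against 0.72, 0.87 and 0.80 in Control. At PND 100 they were -0.65, 0.21 and -0.75 in EB+T+E, against 0.37, 0.72 and 0.59 in Control. Over the 10 group means, Bmp7 correlated with this list at 0.90 and Fgfr2 at 0.84, as a description of 10 points that share arrays and scaling. At least 10 of the 11 genes were well above background on every array. Bmp7 also correlated with the immune list at -0.76 and with the endothelial list at -0.67 over the group means. For Fgfr2 these were -0.57 and -0.54.

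The fibroblast and matrix list (15 of 15 tested) ran at 1.32, 1.22 and 0.72 in EB+T+E at PND 145, against -0.83, -1.15 and -0.98 in Control. It correlated with Bmp4 at 0.72 and with Fgf10 at 0.51 over the group means. The seminal vesicle list, 6 of 8 tested, correlated with Bmp4 at -0.79, Fgf10 at -0.68 and Wnt5a at -0.66. With Ptch1 it correlated at 0.71 and with Hoxd13 at 0.64. Its median array at PND 145 stood at 0.06 in Control, -2.98 in EB and -0.79 in EB+T+E. The urothelial list, 5 of 7 tested, correlated with Fgf10 at 0.86. Its genes did not move together: in EB+T+E against Control at PND 145 Upk1a was lower (-4.07) and Krt20 higher (3.92). From 2 to 5 of its genes were well above background on an array. The immune list, 15 of 15 tested, ran at 0.06, 0.00 and -1.22 in EB+T+E, against -5.57, -5.28 and -5.82 in Control at PND 145, and at -1.43, -2.22 and -3.20 against -5.79, -5.37 and -4.82 at PND 100. From 8 to 9 of the 15 immune markers were well above background on Control arrays at PND 145, and all 15 were on the EB+T+E arrays.

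The luminal list (10 of 10 tested) had means of 0.96, 1.97 and 2.45 in EB+T+E at PND 145, against 2.45, 2.12 and 2.20 in Control. Over the group means Hoxd13 correlated with it at 0.75, with dorsolateral prostate products at 0.77, and with the endothelial list at -0.86, the immune and fibroblast lists at -0.77 each and the list of dividing cells at -0.70. The endothelial list (9 of 9 tested) ran at -0.59, -1.09 and -1.29 in EB+T+E at PND 145, against -2.58, -2.28 and -2.37 in Control, and the list of dividing cells (9 of 9) at -1.62, -1.68 and -2.51, against -3.84, -3.63 and -2.85. The nerve and ganglion list, 14 of 14 tested, ran from -5.85 to -1.66 in EB+T+E, against -6.63 to -6.22 in Control, and the Schwann cell list, 6 of 7 tested, from -1.74 to -0.12, against -3.10 to -2.63. All 4 lists thus read higher in every EB+T+E array of that age than in any Control array. The list of ventral prostate products, 5 of 5 tested, varied between arrays of a group, from -1.86 to 5.64 in EB+T+E and from 2.56 to 6.03 in Control at PND 145, and the lobe content of each sample is not known. The part of any of these lists in the differences of the 10 genes was not tested.

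**Figure D5:**
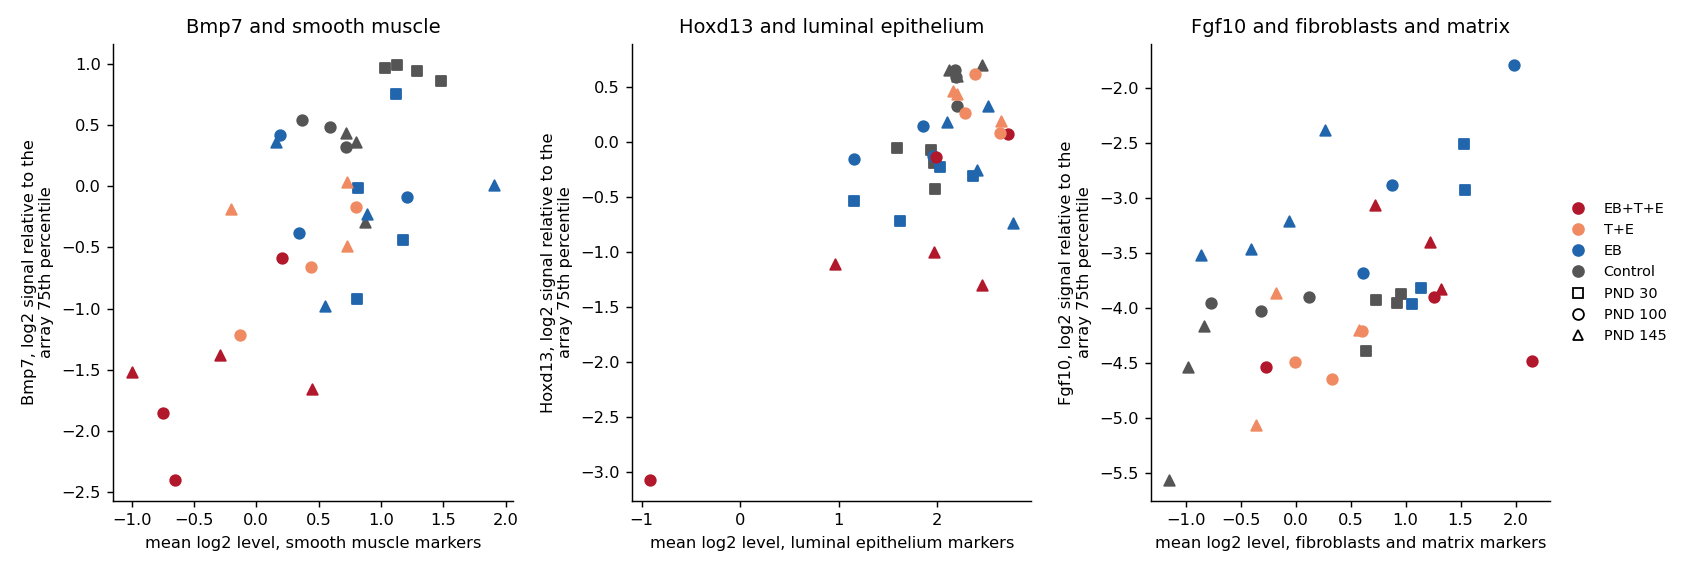
Level of Bmp7 against the mean of the smooth muscle list, of Hoxd13 against the luminal list and of Fgf10 against the fibroblast and matrix list (log2 over the array's 75th percentile on both axes), for the 33 arrays. Colour marks the treatment and shape the age. The lowest Bmp7 and Hoxd13 levels are on EB+T+E arrays, but not all EB+T+E arrays are low. Those of PND 100 also read -0.59 for Bmp7 and -0.14 and 0.07 for Hoxd13, within the range of other groups. The first EB+T+E array of PND 100 lies apart at a luminal mean of -0.91.

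The 10 genes did not follow 1 pattern. Fgfr2 and Bmp7 correlated at 0.88 over the 10 group means and at 0.59 over the 33 arrays after each group's mean was taken off, and Bmp4 and Wnt5a at 0.74 and 0.72. Fgfr2 and Sox9 correlated at 0.83 over group means and at 0.24 within groups. Ptch1 and Gli1, receptor and effector of 1 pathway, correlated at 0.14 and -0.02. These are descriptions over points that share arrays.

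Among 13680 genes searched, those whose 10 group means correlated best with Bmp7 were Pus1 (0.981), Tpbg (0.979) and Slx1b (0.977). For Hoxd13 they were Rbm46 (0.988), Rasd2 (0.987) and Igf2r (0.984). For Fgfr2 they were Gtf2i (0.976), Whrn (0.973) and Rims1 (0.964), and for Fgf10 Rbmx (0.954), Ecm2 (0.944) and Kiaa1328 (0.939). For Gli1 the closest were Ltbp4 (0.924), Islr2 (0.905) and Mrgprf (0.896), and for Sox9 Foxp2 (0.959), Tanc1 (0.928) and Zfp503 (0.918). For Bmp4 they were Piezo2 (0.948), Rev3l (0.926) and Pam (0.907), for Wnt5a Smarca1 (0.927), Tgfb2 (0.899) and Plekhh2 (0.88), and for Ptch1 Asmtl (0.949), Tulp2 (0.933) and Itgb1 (0.927). Nothing of shared function is read from correlations over 10 points.

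The order of the group means could be read in few places. For Bmp7 the Control prostates of PND 30 stood highest and their range did not meet that of the next group, Control at PND 100. The EB+T+E prostates of PND 145 stood below T+E at PND 100 without overlap. For Fgf10 the EB+T+E prostates of PND 145 lay above Control at PND 100 without overlap. All other neighbours in the order of any of the 9 genes overlapped in their arrays.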

How the data were processed

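Total RNA (500 ng, RIN of at least 8, Cy3 label) was hybridised to single-colour Agilent arrays, as the labels' protocols describe. Per the file headers, Agilent Feature Extraction 12.0.0.7 (protocol GE1_1200_Jun14, design 074036, grid build rn4) made the deposited spot intensity values, which are linear and background-subtracted, with no scaling across arrays. In the authors' deposited value table the same intensity is scaled per array, by a method not given in the sources used here, and it served as an alternative.

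Outlier spots were left out and spots of a probe averaged. The level is the log2 ratio of the intensity to the 75th percentile of its array. A probe had to be well above background on 3 or more of the 33 arrays, which 30542 of 45598 were, and the brightest probe per gene gave 23155 genes. Means of the 10 groups were estimated with limma (version 3.58.1, R version 4.3.3, trended, robust empirical Bayes, with data.table version 1.17.8), with Benjamini-Hochberg adjustment over all genes within each of 19 comparisons at 0.05. SE and 95% intervals come from that fit. The fit was tested on simulated data. No depth applies to arrays, whose number limits the precision.

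The 10 genes and all gene lists were chosen with earlier results of these data known, so no count over them is independent evidence. From each pathway list, up to 4 members with the smallest adjusted p per comparison were open to naming. Genes near background were passed over, as decided once values were known. A result that the rule takes is not reported here. The alternatives were a filter of 17 arrays or none, quantile scaling, normexp correction of the background (offset 50), slide or replicate number as a block, array weights, the mean of all probes, the authors' table, a fit of only the groups compared, and each array left out. Python 3.11.15, pandas 2.3.3 and matplotlib 3.10.9 served to read the files and draw the figures.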

Additional observations from a re-analysis of the deposited data

Results flagged for a closer look

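Among the 30 gene and group pairs of 4 arrays, 3 had 1 array far from the other 3 by Dixon's criterion at the 95% level. Chance gives about 1 in 20 such pairs. All 3 were Control arrays of PND 30. Bmp4 read -3.10 on the second, Fgf10 read -4.39 on the same array, and Fgfr2 read 0.86 on the first. Without either array the comparison of EB with Control at PND 30 still called 0 of the 9 genes.

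Gli1 read lower in EB+T+E at PND 100 and higher at PND 145. Every EB+T+E array was on one side of the Control mean at PND 100 and on the other at PND 145, with differences of -0.82 and 0.79. Against EB the differences were -1.27 at PND 100 and 0.95 at PND 145. None of the 4 passed in the main fit, and the change between ages was not tested.

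Shh, which entered no comparison, was well above background on 1 array, the second EB array of PND 145, at a level of -6.90.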

How the results depend on the processing

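The 18 calls among the 10 genes were refitted under 43 alternatives each, and none reversed. The calls of Bmp7 and Hoxd13 against Control at PND 145 and of Bmp7 against EB at PND 145 held under all 43. Gli1 in EB at PND 145 against EB at PND 100 was lost in 36, Fgfr2 against T+E at PND 145 in 28, and Fgfr2 and Wnt5a against Control at PND 145 in 9 and 8. With array weights, which spread from 0.169 to 5.08, the number of genes called was 3 for EB against Control at PND 30, 1 at PND 100 and 3 at PND 145. It was 2 for T+E against Control at each adult age, 5 for EB+T+E against EB at PND 145, 4 for the interaction at PND 145, 5 for Control at PND 100 against PND 30 and 2 for EB at PND 100 against PND 30. That setting also raised the share of all genes called between EB+T+E and Control at PND 145 to 54.1%. For the other comparisons its share of all genes is not set beside these counts. They are therefore not read as a result about these genes. A fit of only the groups compared called 0 between EB+T+E and Control at PND 100 and 0 between EB+T+E and EB at PND 100, and 3 for Control at PND 100 against PND 30, again without the share of all genes beside them. Normexp left 2 and 1 in the first pair of these. Quantile scaling and slide as a block each left 1 for EB+T+E against EB at PND 145. The mean of all probes gave 1 for EB against Control at PND 145, Fgf10. For EB at PND 145 against PND 100 the count was 0 under normexp, no filter, slide, all probes, the authors' table and only the groups compared. With replicate number as a block that count was 0 too, and no other count moved by over 1.5 times. The replicate numbers did not pair the arrays: correlations of same-numbered deviations ran from -0.445 to 0.458, and no comparison had all above 0.1. Leaving out each array gave 7 to 8 for the test over 10 groups, 0 to 1 for EB against Control at PND 30 and at PND 145, 1 to 4 between EB+T+E and Control at PND 100 and 2 to 5 at PND 145. Against T+E it gave 0 to 3 at PND 100 and 0 to 4 at PND 145, against EB 0 to 4 at PND 100 and 1 to 3 at PND 145. It gave 0 to 1 for Control at PND 100 against PND 30 and for EB at PND 145 against PND 100, and 0 elsewhere. The cause of these moves was not tested. Signal limits Shh and Ptch1, dim on 32 and 14 arrays.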
